A study of Mus musculus with 7 samples.

Results

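Complement and coagulation genes were examined in the livers of male mice fed a high-fat diet (HFD). The group comprised 40 genes, 20 for complement and 20 for coagulation, out of 51426 genes in the count tables, and its members were picked by gene name. All 40 were read well enough to be tested, as were 14754 genes in all. Liver RNA was sequenced from 3 wild-type mice (WT) and 4 mice lacking TET1 in the whole body (TET1 KO). TET1 is an enzyme that oxidises methylated cytosine in DNA. Both groups were C57BL/6J by their labels, shared the sex and tissue, and received the HFD for 16 weeks from 8 weeks of age, so no chow-fed group enters the comparison. The sequenced animals were TET1-/- and TET1wt/wt mice, which the study names apart from its Actb-Cre whole-body line, and its methods list the knockout stock as B6;129S4-Tet1tm1.1Jae/J. The methods describe the strain background of the floxed and Cre lines but give no backcross for this stock. Strain differences between the groups were not tested. The knockout is present in every tissue of the animal. Effects arising in the liver and elsewhere cannot be told apart here.

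Complement is a chain of plasma proteases that coats and lyses microbes. Coagulation is a second chain of proteases, which ends in the fibrin clot and is balanced by fibrinolysis and by inhibitors. Hepatocytes secrete most of the proteins of both systems, and several of them belong to the acute phase response, in which cytokines such as IL-6 raise or lower secretion by the liver.

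Library totals ranged from 15005277 to 22746138 counts, and each member had between 138 and 111972 counts in a library. Values are given below as CPM, each count taken relative to the total of its library after TMM scaling. The targeted gene Tet1 had at most 4 counts in any liver of either genotype, so it could not check the labels (permutation p = 1, exact and two-sided over 35 splits). The third WT liver stood apart in acute phase genes before any comparison of genotypes. Saa1, a strongly inducible acute phase gene, was at 2994 CPM there and at 111 and 77.9 CPM in the other WT livers, and at 39.1, 582, 59.6 and 264 CPM in the TET1 KO livers. Values without this liver are given beside the results that turned most on it.

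Of the 40 members, 1 rose in TET1 KO livers and 0 fell by edgeR's quasi-likelihood test at an adjusted p under 0.05. That member was F11, and its share of 2.5% stands beside 0.874% of all tested genes called higher and 1.15% called lower. At an adjusted p under 0.1, 5 members were higher (C2, C6, F11, Klkb1 and Proc) and 0 lower, against 5.7% and 5.59% of all genes. At an unadjusted p under 0.05, 6 members were higher and 6 were lower, or 15% each way, against 13.6% and 12.7% of all genes. DESeq2 called 4 members higher (F11, Klkb1, Proc and C6) and 1 lower (F13b), where it called 4.34% of genes higher and 4.8% lower. The livers of the genotypes did not overlap for 6 members that were higher (C2, Masp2, C8g, F11, Klkb1 and Proc) and 2 that were lower (Mbl2 and F13b). This occurred for 11.7% and 10.8% of all genes. These shares also stand behind each role below, where 0 calls among 2 to 8 members is close to the edgeR background.

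The members split evenly, with 20 positive and 20 negative fold changes, but without the third WT liver 25 were positive and 15 negative. In that fit 15 of the 20 complement members and 10 of the 20 coagulation members were positive (75% and 50%, against 50.5% of all genes). Leaving out another liver moved some complement members the other way, to log2 fold changes as low as -0.23 for Hc and -0.30 for C9. The log2 fold changes of TET1 KO over WT, called estimates below, ran from -0.85 to 1.11 with a median of 0.01, which was also the median over all tested genes. The 95% interval lay wholly within 1 log2 unit of 0 for 28 of the 40 members. Its half-width was 0.29 to 0.84, with a median of 0.47, which is a factor of 1.38. When 1 liver was left out, the estimate of 29 of the 40 members changed sign or moved by over 1.5 times. The other 11 were C2, Masp2, C8g, C4bp, F11, Klkb1, F9, Proc, F13b, Fga and Cpb2. The members' joint share of all counts was 2.42%, 3.10% and 3.71% in WT livers and 2.07%, 3.12%, 2.34% and 3.07% in TET1 KO livers. These shares overlapped between the genotypes. In bulk liver, fewer cells of a type and less RNA per cell cannot be told apart.

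**Figure D1:**
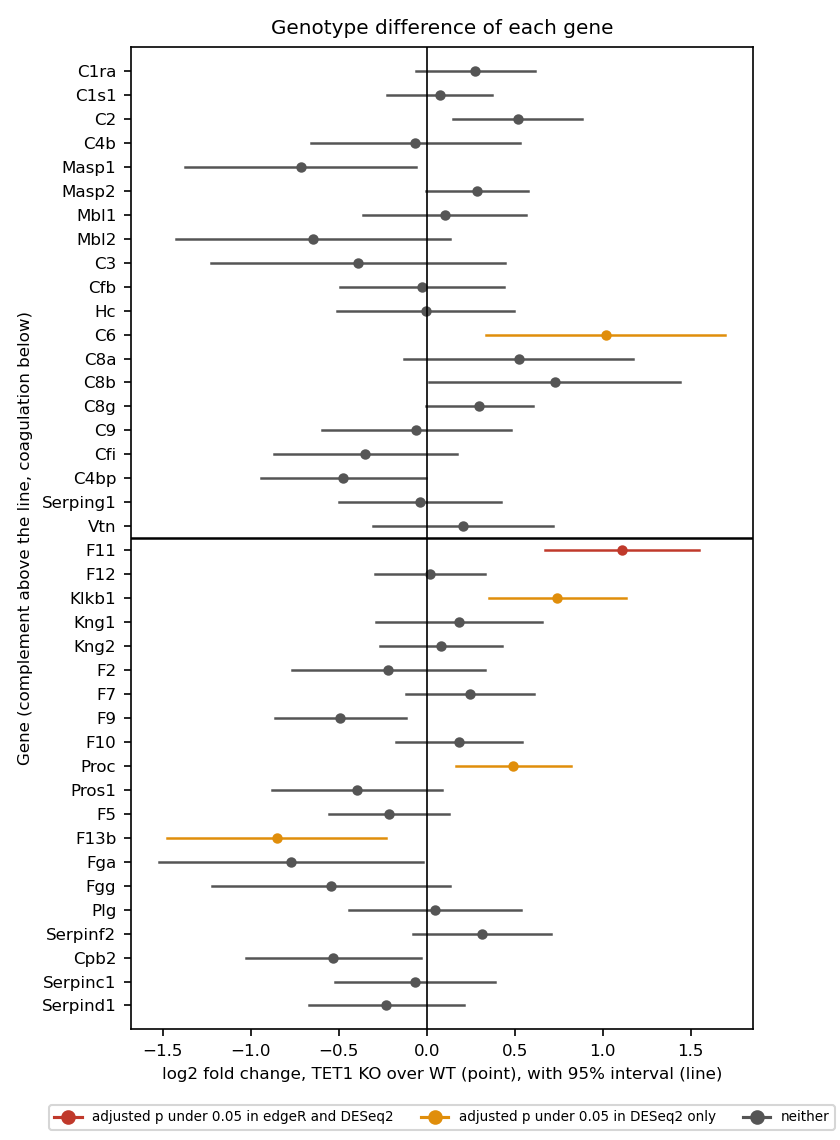
Log2 fold change of TET1 KO over WT for each of the 40 genes on the x axis, with points for the edgeR estimate and lines for its 95% interval, from 3 WT and 4 TET1 KO livers. F11 at 1.11 is the gene past the edgeR threshold, C6, Klkb1, Proc and F13b are past the DESeq2 threshold only, and 28 intervals lie between -1 and 1.

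The contact pathway starts coagulation on a surface. Factor XII and plasma kallikrein activate each other on kininogen, factor XI passes the signal to factor IX, and kallikrein also releases the peptide bradykinin from kininogen. F11 and Klkb1, which arose from a gene duplication, lie side by side on chromosome 8. F11 spans 45240659 to 45262055 and Klkb1 spans 45266688 to 45294835 in GRCm38.p6, with 4632 bases between them and both on the minus strand. The RefSeq sequence just upstream of each annotated gene start is shown because these neighbours had the largest positive differences among the coagulation members. Capitals would mark a match to one of the 4 motifs described further on, and neither stretch holds one. The F11 stretch is chr8:45262056-45262281, minus strand, and the Klkb1 stretch is chr8:45294836-45295085, minus strand.
F11: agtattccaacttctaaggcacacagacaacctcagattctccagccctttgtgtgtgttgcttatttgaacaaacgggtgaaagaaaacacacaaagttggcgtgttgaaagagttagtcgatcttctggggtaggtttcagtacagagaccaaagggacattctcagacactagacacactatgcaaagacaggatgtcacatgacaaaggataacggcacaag
Klkb1: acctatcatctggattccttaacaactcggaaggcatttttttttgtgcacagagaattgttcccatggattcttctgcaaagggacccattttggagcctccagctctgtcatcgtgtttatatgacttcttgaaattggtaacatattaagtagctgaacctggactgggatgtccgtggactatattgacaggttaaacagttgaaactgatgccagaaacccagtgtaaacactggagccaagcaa

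F11 encodes coagulation factor XI. Its level was 33.4, 29.6 and 44.0 CPM in WT livers and 78.5, 86.1, 89.0 and 54.5 CPM in TET1 KO livers. Every TET1 KO liver was above every WT liver, with the fourth TET1 KO liver the lowest of its group. The means were 35.7 ± 7.47 (SD, n = 3) and 77.0 ± 15.6 CPM (SD, n = 4). The genotypes differed by 1.11 ± 0.20 log2 units (SE), or 2.16-fold, with a 95% interval of 0.67 to 1.54 (edgeR adjusted p = 0.0218, DESeq2 adjusted p = 3.3e-05). Without the third WT liver it was 1.27 (edgeR adjusted p = 0.0170). The adjusted p rose to 0.0523 without the first WT liver, 0.130 without the second, 0.0582 without the second TET1 KO liver and 0.0686 without the third, while the log2 fold change stayed between 0.98 and 1.27.

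Klkb1 encodes prekallikrein. It was at 277, 206 and 238 CPM in WT livers and at 456, 424, 419.5 and 305 CPM in TET1 KO livers. As for F11, the groups did not overlap and the fourth TET1 KO liver was the lowest of its group. The difference of 0.74 ± 0.18 log2 units (SE), or 1.67-fold, missed the edgeR threshold (adjusted p = 0.0569) but passed that of DESeq2 (adjusted p = 0.0029).

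The other 3 contact genes had smaller differences and were called by neither tool. Kng1, a kininogen and the most abundant member of the pathway, had 1676, 1645 and 1999.8 CPM in WT livers and 1722, 2553, 1809 and 1971 CPM in TET1 KO livers, and the groups overlapped. Its estimate on the log2 scale was 0.18 (edgeR adjusted p = 0.602), and 0.035 without the second TET1 KO liver. Its near copy Kng2 had a log2 fold change of 0.08, and reads shared between the kininogen genes could have been split between them. For F12, factor XII, the estimate was 0.02 with an interval of -0.29 to 0.33. All 5 contact genes had a positive estimate, as had 51.1% of all genes, and 1 of 5 was called higher (20%, against 0.874%), although F12 and Kng2 turned negative when libraries were scaled by total counts alone.

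**Figure D2:**
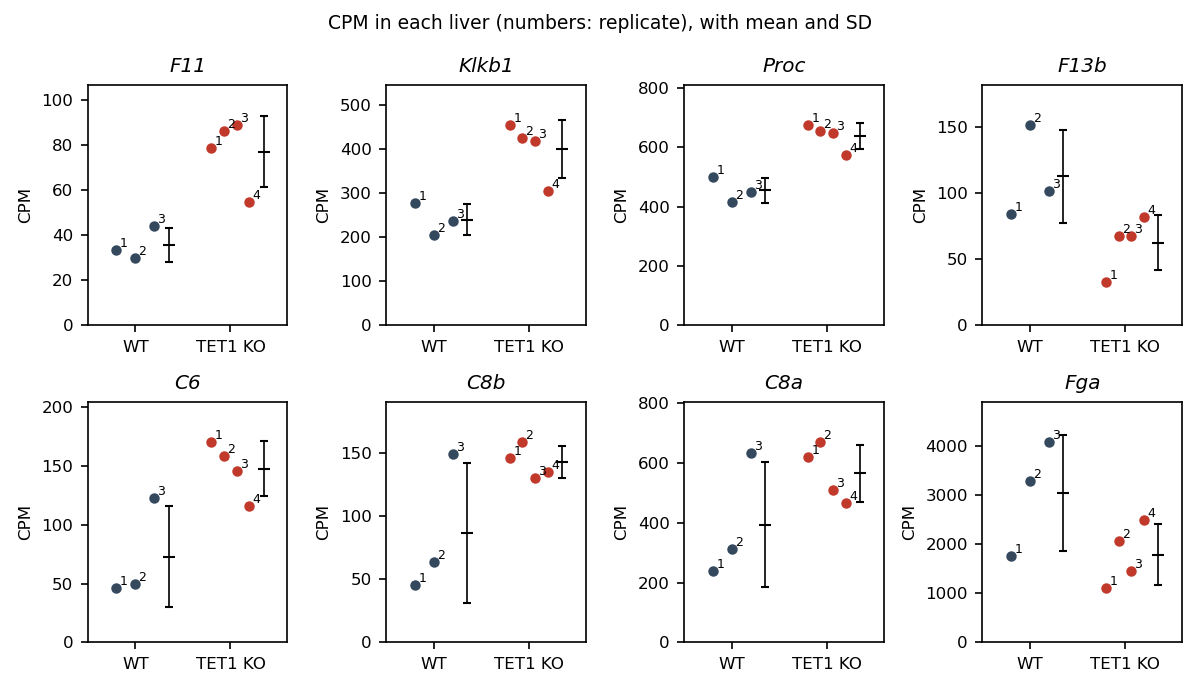
TMM-normalised CPM (y axis, from 0) of F11, Klkb1, Proc, F13b, C6, C8b, C8a and Fga in each liver, with numbered points for the 3 WT and 4 TET1 KO livers and a bar for the mean and SD of each group. F11, Klkb1, Proc and F13b do not overlap between the genotypes, while the third WT liver reaches the TET1 KO values for C6, C8b and C8a.

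The vitamin K-dependent proteins are made in hepatocytes and need carboxylation to bind membranes. Of these 6 members, 0 were called by edgeR and DESeq2 called 1 higher, where it called 4.34% of all genes. At an unadjusted p under 0.05, 1 was higher and 1 lower (16.7% each way, against 13.6% and 12.7% of all genes). Proc encodes protein C, an anticoagulant protease that inactivates factors V and VIII. It was at 501, 415 and 448 CPM in WT livers and at 677, 656, 648 and 574 CPM in TET1 KO livers, so that all TET1 KO livers were higher. This was a difference of 0.49 ± 0.15 log2 units (SE), or 1.41-fold (edgeR adjusted p = 0.0874, DESeq2 adjusted p = 0.0106). Pros1, the cofactor of protein C, had an estimate of the other sign, -0.40 (edgeR adjusted p = 0.266).

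F9, the protease that factor XI activates, averaged 199 ± 30.3 CPM in WT livers and 141 ± 24.5 CPM in TET1 KO livers. The difference of -0.49 ± 0.17 log2 units (SE) was called by neither tool (edgeR adjusted p = 0.108, DESeq2 adjusted p = 0.0571). F2, prothrombin, was the most abundant of these 6. It was at 1225, 1515 and 1447 CPM in WT livers and 718, 1458, 1178 and 1445 CPM in TET1 KO livers, where the first TET1 KO liver was low and the others lay within or near the WT range. F7, the partner of tissue factor, and F10, which cleaves prothrombin, lie 1498 bases apart on chromosome 8 and had estimates of 0.24 and 0.18 (edgeR adjusted p = 0.357 and 0.487), which were 0.37 and 0.31 without the third WT liver.

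Fibrin formation gave the lowest median of the roles, -0.66 (-0.41 without the third WT liver). All 4 of its members had negative estimates, as had 7211 of the 14754 tested genes. None was called by edgeR, whereas 2 of 4 were lower at an unadjusted p under 0.05 (12.7% of all genes) and DESeq2 called F13b. Without the third WT liver 1 of 4 was lower at that unadjusted threshold (11.3% of all genes in that fit). F13b encodes the carrier subunit of factor XIII, which cross-links fibrin. It was at 84.3, 152 and 101 CPM in WT livers and 32.5, 67.6, 67.4 and 81.5 CPM in TET1 KO livers. The highest TET1 KO liver was just below the lowest WT liver. The estimate was -0.85 ± 0.28 log2 units (SE) with an interval of -1.47 to -0.23 (edgeR adjusted p = 0.101, DESeq2 adjusted p = 0.0340), and it was -0.58 without the second WT liver.

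Fga and Fgg encode the alpha and gamma chains of fibrinogen, the precursor of fibrin and an acute phase protein. Together with Fgb, the beta chain gene, they form a cluster on chromosome 3, with 11096 bases between Fgg and Fga and 8618 bases between Fga and Fgb. The sequences upstream of Fga and Fgg are shown because the chains are made in concert and Fga holds motif matches. Capitals in Fga mark, in this order, a match to the motif of STAT, one to that of C/EBP, factors that act in the acute phase response, and one to that of HNF1, a hepatocyte factor. The Fgg stretch holds no match to a motif searched. The Fga stretch is chr3:83025903-83026152 and the Fgg stretch is chr3:83007474-83007723, both on the plus strand of GRCm38.p6.
Fga: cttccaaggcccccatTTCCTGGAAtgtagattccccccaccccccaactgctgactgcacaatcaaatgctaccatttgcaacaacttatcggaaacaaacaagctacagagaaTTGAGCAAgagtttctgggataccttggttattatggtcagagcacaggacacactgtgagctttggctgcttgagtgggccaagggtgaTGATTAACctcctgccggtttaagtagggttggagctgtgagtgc
Fgg: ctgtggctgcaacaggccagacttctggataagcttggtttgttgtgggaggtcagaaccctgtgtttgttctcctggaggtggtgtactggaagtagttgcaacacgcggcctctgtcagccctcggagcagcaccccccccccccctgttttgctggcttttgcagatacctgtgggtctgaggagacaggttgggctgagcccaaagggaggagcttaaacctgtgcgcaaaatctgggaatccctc

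Fga was at 1749, 3273 and 4077 CPM in WT livers and at 1111, 2064, 1444 and 2498 CPM in TET1 KO livers. The groups overlapped, since the first WT liver was below 2 of the TET1 KO livers. The estimate of -0.77 ± 0.34 log2 units (SE) was not called (edgeR adjusted p = 0.181, DESeq2 adjusted p = 0.0710), and without the third WT liver it was -0.52. Fgg averaged 2556 ± 901 CPM in WT livers and 1754 ± 536 CPM in TET1 KO livers. Its estimate was -0.54 (edgeR adjusted p = 0.277), and it was -0.27 without the third WT liver. Fgb, which was not among the members, had an estimate of -0.30 (edgeR adjusted p = 0.504), which was -0.03 without the third WT liver. F5, the cofactor of factor Xa, had one of -0.21 (edgeR adjusted p = 0.386), and of -0.07 without the second WT liver.

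Among the 3 fibrinolysis members and the 2 thrombin inhibitors, 0 were called by either tool. The shares over all genes were 0.874% higher and 1.15% lower by edgeR, and 4.34% and 4.8% by DESeq2. Plg, plasminogen, was at 1539.9, 1921 and 2109.6 CPM in WT livers and 1482, 2248, 1776 and 2160.4 CPM in TET1 KO livers. Its groups overlapped along nearly their whole range, with an estimate of 0.05 (interval -0.44 to 0.53) that was -0.05 when libraries were scaled by total counts alone. Serpinf2, the plasmin inhibitor alpha-2-antiplasmin, had an estimate of 0.31 (edgeR adjusted p = 0.279). Cpb2 encodes a carboxypeptidase that slows fibrinolysis, and it averaged 297 ± 61.9 CPM in WT livers and 205 ± 55.6 CPM in TET1 KO livers. The estimate for Cpb2 was -0.53 (edgeR adjusted p = 0.169). Serpinc1, antithrombin, was at 1747, 1665 and 1652 CPM in WT livers and 1176, 1842, 1712 and 1714 CPM in TET1 KO livers. The first TET1 KO liver alone was low, and the estimate was -0.07 (interval -0.52 to 0.39). Serpind1, heparin cofactor II, had an estimate of -0.23 (edgeR adjusted p = 0.478), and of -0.087 without the first TET1 KO liver.

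In complement, 0 of 20 members were called in either direction by edgeR, against 0.874% of all genes higher and 1.15% lower. At an unadjusted p under 0.05, 3 were higher and 2 lower, and DESeq2 called 1 higher, while 13.6%, 12.7% and 4.34% of all genes were so called. The median log2 fold change was 0.03. Without the third WT liver the median was 0.27 and edgeR called 2 of 20 members higher, C6 and C8b (10%, against 0.45% of all genes in that fit).

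The terminal pathway assembles the membrane attack complex. C5, encoded by Hc in the mouse, is cleaved to start it, and C6, C8 and C9 then join into a pore. This role had the highest median of all, 0.41 (0.67 without the third WT liver), and the WT livers were widely spread in it. C6 was at 46.7, 50.0 and 123 CPM in WT livers and at 171, 158, 146 and 116 CPM in TET1 KO livers. The third WT liver reached the range of the TET1 KO livers, and the other WT livers were far below it. The genotypes differed by 1.02 ± 0.31 log2 units (SE), or 2.02-fold (edgeR adjusted p = 0.0874, DESeq2 adjusted p = 0.0158). Without the third WT liver it was 1.59 (edgeR adjusted p = 0.00388), and without the first it was 0.77 (edgeR adjusted p = 0.143).

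The 3 chains of C8 had positive estimates. C8b was at 45.8, 63.5 and 149 CPM in WT livers and at 146, 159, 130.1 and 135 CPM in TET1 KO livers, again with the third WT liver inside the TET1 KO range. Its estimate was 0.73 ± 0.32 log2 units (SE; edgeR adjusted p = 0.183), and it was 1.36 without that liver (edgeR adjusted p = 0.00716) but 0.42 without the first WT liver (edgeR adjusted p = 0.346). C8a, which lies 11130 bases from C8b on chromosome 4, had an estimate of 0.52 (edgeR adjusted p = 0.276) and of 1.02 without the third WT liver (edgeR adjusted p = 0.0541), but 0.26 without the first (edgeR adjusted p = 0.567). C8g, which lies on another chromosome, averaged 381 ± 37.3 CPM in WT livers and 469 ± 13.5 CPM in TET1 KO livers without overlap, and its log2 fold change was 0.30 (edgeR adjusted p = 0.199).

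Hc and C9 did not share these positive estimates. Hc was at 483, 662 and 975 CPM in WT livers and at 632, 826, 647 and 708 CPM in TET1 KO livers, so the TET1 KO livers lay inside the WT range. The estimate for Hc was -0.01 (interval -0.51 to 0.50), and that of C9, whose product forms the wall of the pore, was -0.06 (interval -0.60 to 0.48). Without the third WT liver these were 0.28 and 0.26, neither of them called, and with another liver left out they were as low as -0.23 and -0.30.

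The classical and lectin pathways recognise antibodies and sugars and then cleave C4 and C2. Of their 8 members 0 were called by either tool. Over all genes edgeR called 0.874% higher and 1.15% lower, and DESeq2 called 4.34% and 4.8%. The median of these 8 was 0.09, and 0.26 without the third WT liver. C4b was the most abundant, with 938, 1199 and 1842 CPM in WT livers and 1047, 1705, 1009 and 1311 CPM in TET1 KO livers. Its TET1 KO livers lay inside the WT range, and the log2 fold change was -0.06 (0.23 without the third WT liver). Its near copy C4a was at 35.6 to 104 CPM in WT livers and at 58.8 to 155 CPM in TET1 KO livers, and reads could have been split between the copies. C2, the protease that pairs with C4b, averaged 50.5 ± 10.9 CPM in WT livers and 72.3 ± 9.19 CPM in TET1 KO livers without overlap. The estimate for C2 was 0.52 ± 0.17 log2 units (SE; edgeR adjusted p = 0.0963, DESeq2 adjusted p = 0.0633).

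The sugar receptors and their proteases differed among themselves. Mbl2, a mannose-binding lectin, was at 447, 481 and 447 CPM in WT livers and at 102, 376, 282 and 410.4 CPM in TET1 KO livers. All TET1 KO livers were below the WT livers, and the first was far below the rest. The estimate was -0.65 ± 0.35 log2 units (SE; edgeR adjusted p = 0.263) and was -0.36 without the first TET1 KO liver. Mbl1, the second mannose-binding lectin, had an estimate of 0.10 (edgeR adjusted p = 0.779), and of 0.29 without the third WT liver. Masp1 was at 8.37, 26.1 and 14.5 CPM in WT livers and at 9.64, 9.72, 11.2 and 9.23 CPM in TET1 KO livers. The TET1 KO livers were nearly equal, the first WT liver was below all of them, and the log2 fold change of -0.72 (edgeR adjusted p = 0.161) was -0.20 without the second WT liver. Masp2, the protease that cleaves C4 and C2, averaged 240 ± 17.0 CPM in WT livers and 292 ± 21.9 CPM in TET1 KO livers without overlap (log2 fold change 0.29, edgeR adjusted p = 0.196). C1ra and C1s1, the proteases of the C1 complex, had estimates of 0.28 and 0.07 (edgeR adjusted p = 0.269 and 0.753), the second of which was -0.02 when libraries were scaled by total counts alone. Both have near copies, C1rb and C1s2, with which reads could have been shared.

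C3, on which all routes converge, was the most abundant member by CPM. It was at 2633, 4262 and 6179 CPM in WT livers and at 1868, 4529.6, 2519 and 4368 CPM in TET1 KO livers. The WT livers alone spanned more than the difference between the group means, and the log2 fold change was -0.39 ± 0.38 (SE; edgeR adjusted p = 0.524) and was -0.07 without the third WT liver. Cfb, the protease of the alternative pathway, had an estimate of -0.03 (interval -0.49 to 0.44), and of 0.21 without the third WT liver. It lies 87 bases from C2 on chromosome 17, where C2 had 0.52.

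Of the 4 regulators 0 were called by either tool, against 0.874% of all genes higher and 1.15% lower by edgeR, and 4.34% and 4.8% by DESeq2. Vtn, vitronectin, which blocks the membrane attack complex, was at 1949.6, 1868 and 2628 CPM in WT livers and at 2031, 3082, 2388 and 2423 CPM in TET1 KO livers, with overlapping groups and an estimate of 0.21 (edgeR adjusted p = 0.585) that was 0.36 without the third WT liver. C4bp, which holds C4b in check, averaged 533 ± 99.4 CPM in WT livers and 384 ± 91.8 CPM in TET1 KO livers. The estimate for C4bp was -0.47 (edgeR adjusted p = 0.185). Cfi, the protease that cuts C3b and C4b, had an estimate of -0.35 (edgeR adjusted p = 0.358). Serping1, the C1 inhibitor that also blocks kallikrein and factor XI, had one of -0.04 (interval -0.50 to 0.42), and of 0.14 without the third WT liver.

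Per exon length, the members spanned a 480-fold range of mean level in WT livers over the 39 with a known length. The highest were Fgg at 1301 RPKM (CPM divided by the exon length in kilobases), Vtn at 1058 RPKM and Fga at 1034 RPKM. The SDs of these 3 over the WT livers were 901, 417 and 1182 CPM, so their order was within the spread between livers. The lowest was Masp1 at 2.71 RPKM, below Pros1 at 12.1 RPKM and C2 at 12.4 RPKM. F11 was also a low member, at 15.9 RPKM in WT livers and 34.3 RPKM in TET1 KO livers.

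Spread between livers of one genotype was wide and shared by many members. The ratio of the highest to the lowest WT liver was 1.06 to 3.26 with a median of 1.43, and among TET1 KO livers it was 1.07 to 4.01 with a median of 1.48. Among the WT livers, the third was the highest for 16 of 20 complement members (80%, against 27.5% of all genes) and for 11 of 20 coagulation members (55%). The first WT liver was the lowest for 14 of 20 members in each system (70%, against 34.6% of all genes). Among the TET1 KO livers, the second was the highest for 15 complement and 12 coagulation members (75% and 60%, against 21.9%). The first TET1 KO liver was the lowest for 16 coagulation members (80%, against 32.5%) and for 10 complement members.

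**Figure D3:**
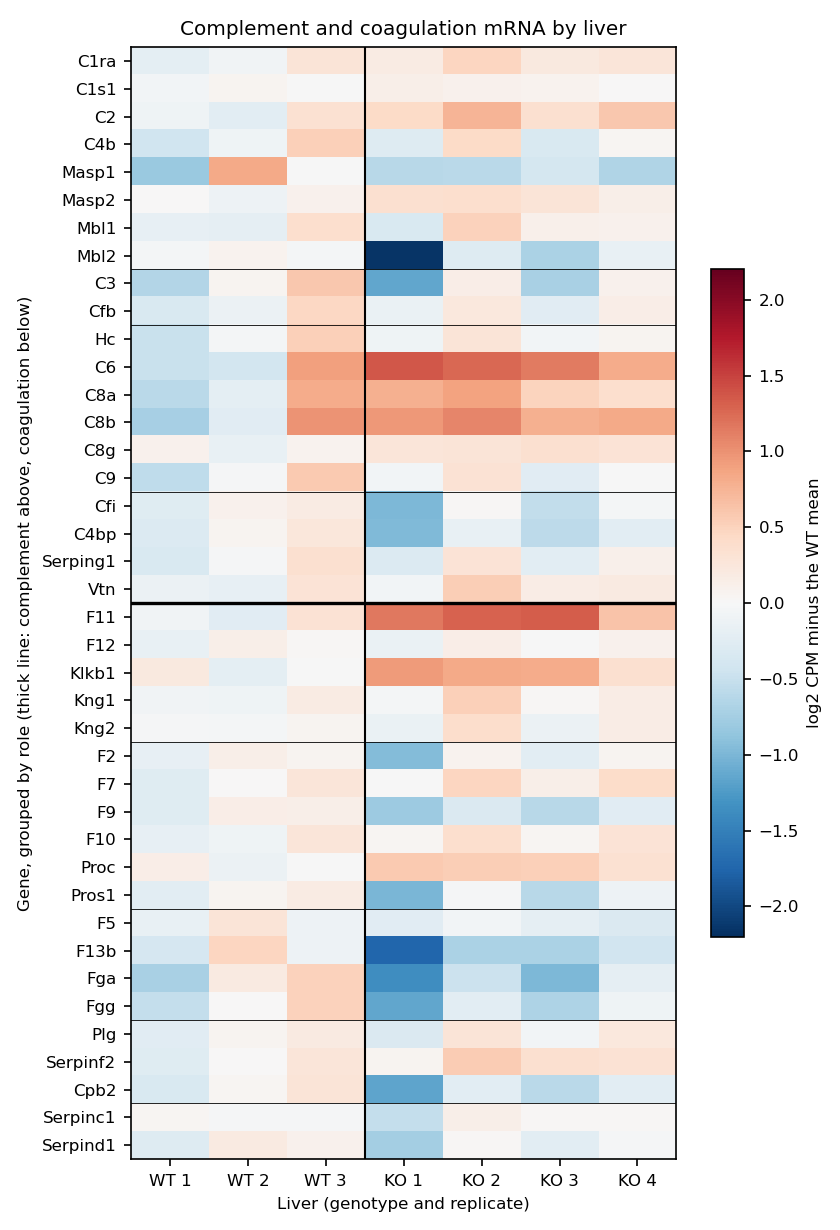
Log2 CPM of each of the 40 genes (rows) in each liver (columns) as the difference from the WT mean of the gene, on a colour scale from -2.2 to 2.2. The third WT liver is the highest WT liver in 16 of 20 complement rows, and the first TET1 KO liver is the lowest TET1 KO liver in 16 of 20 coagulation rows.

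The acute phase list was spread over the same livers. The mean difference from the WT mean over its 16 genes was -0.64, -0.81 and 1.45 log2 units in WT livers and -1.60, 0.42, -1.03 and -0.01 in TET1 KO livers. For the 20 complement members the same measure was -0.33, -0.05 and 0.38 in WT livers and -0.14, 0.35, -0.00 and 0.15 in TET1 KO livers. For the coagulation members it was -0.20, 0.04 and 0.15 in WT livers and -0.38, 0.18, -0.09 and 0.07 in TET1 KO livers. In all 3 lists the third WT liver was the highest of the WT livers, the second TET1 KO liver was the highest of its group and the first was the lowest. None of the 16 acute phase genes was called by edgeR, nor any of the 14 to which DESeq2 gave an adjusted p (all but Saa1 and Saa2). At an unadjusted p under 0.05, 2 were lower (12.5%, against 12.7% of all genes). The median of the list was -0.42 with all livers and 0.29 without the third WT liver, so its direction turned with that liver. The part of the acute phase in the members' differences was not tested.

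**Figure D4:**
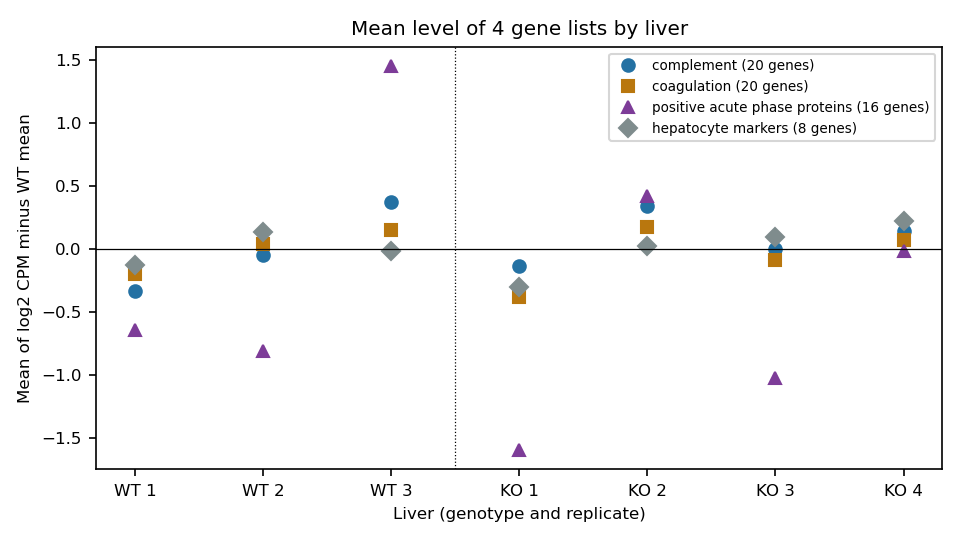
Mean difference from the WT mean in log2 CPM (y axis) for gene lists in each of the 7 livers (x axis, by genotype and replicate). The acute phase list reaches 1.45 in the third WT liver and -1.60 in the first TET1 KO liver, while the complement members stay between -0.33 and 0.38.

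The 40 members lay on 15 chromosomes, 0 of them on that of Tet1. Among the members and Fgb, the only genes searched for this, 8 pairs of neighbours were within 50000 bases of each other. RefSeq promoter windows around the gene start (GRCm38.p6) were found for 31 members, in 33 windows. Each was searched on both strands for letters of known liver factor motifs. The HNF1 motif GTTAATNA was found for 5 members (C4bp, C8a, F13b, Fga and Hc), in 15.2% of member windows and 2.54% of all 32851 windows. The HNF4 motif GGNCAAAG was found for F7, F12 and Serpinc1, and the C/EBP motif TTGCNCAA for F9, Fga and Kng2, each in 9.09% of member windows and in 5.62% and 2.94% of all windows. The STAT motif TTCNNNGAA was found for 7 members (C1ra, C8a, F9, Fga, Masp2, Pros1 and Vtn), in 21.2% of member windows and 8.3% of all windows. Fga held 3 of the 4 motifs, and no motif overlapped another there. Neither F11 nor Klkb1, whose upstream sequences are printed above, held a match to any of the 4.

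Other genes of the pathways were listed by name as well. Of 25 tested further complement genes, which include C1q, properdin, receptors and membrane regulators, 0 were called by edgeR or DESeq2 and 3 were lower at an unadjusted p under 0.05 (12%, against 12.7% of all genes). Their median was -0.11, and 0.087 without the third WT liver. Of 17 tested further coagulation genes, 1 rose (5.88%, against 0.874% of all genes) and 0 fell by edgeR. At an unadjusted p under 0.05, 6 were lower (35.3%, against 12.7%) and 1 higher (5.88%, against 13.6%). Without overlap between the genotypes, 4 were lower (23.5%, against 10.8%) and 2 higher (11.8%, against 11.7%). The gene that rose was Serpine2, protease nexin-1, an inhibitor of thrombin and plasminogen activators, at 3.84, 2.98 and 3.48 CPM in WT livers and 9.02, 15.7, 16.2 and 12.9 CPM in TET1 KO livers. The groups were well apart, with a difference of 1.97 ± 0.23 log2 units (SE; edgeR adjusted p = 0.00366). DESeq2 also called Serpina1a higher, an alpha-1-antitrypsin gene with near copies, and Thbd lower, thrombomodulin of the endothelium, with edgeR log2 fold changes of 0.46 and -1.14. The median of this list was -0.36, and -0.030 without the third WT liver over the same 17 genes. Among 6 genes that carboxylate or export clotting factors, 0 were called by edgeR. DESeq2 called Vkorc1l1 lower (log2 fold change -0.47), where it called 4.8% of all genes lower.

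Cell type markers were set beside these values. The 8 hepatocyte markers summed to 66890 to 89560 CPM in WT livers and 77300 to 87410 CPM in TET1 KO livers, and of these Apoa1 was called higher by DESeq2 only (log2 fold change 1.10). The summed level of the 6 listed cholangiocyte markers, 5 of them tested, was 29.7 to 37.9 CPM in WT livers and 46.2 to 68.0 CPM in TET1 KO livers, without overlap. Spp1 made up most of this sum, at 19.8 to 29.1 CPM in WT livers and 30.7 to 43.7 CPM in TET1 KO livers. Krt19 and Krt7 overlapped between the genotypes and, like Epcam, were highest in the fourth TET1 KO liver. Among the cholangiocyte markers, DESeq2 called Sox9 and Epcam higher and edgeR called 0, and Cftr was at or near 0 in every liver. Endothelial markers summed to 144.6 to 146.5 CPM in WT livers and 121 to 139.5 CPM in TET1 KO livers, where DESeq2 called Lyve1 lower. The 7 stellate cell markers overlapped in sum, at 266 to 445 CPM in WT livers and 278.5 to 420.1 CPM in TET1 KO livers, with a median of -0.10, and of these DESeq2 called Hgf and Col1a1 lower. Without the third WT liver the stellate median was -0.24, and edgeR called Col1a1 and the endothelial Lyve1 lower (adjusted p = 0.0333 and 0.0338). Macrophage markers overlapped, at 192 to 314.5 CPM in WT livers and 146 to 315 CPM in TET1 KO livers. T and NK cell markers, B cell markers and neutrophil markers were at most 31.1 CPM in sum, and the neutrophil genes S100a8 and S100a9 were highest in the third WT liver, at 13.3 and 16.9 CPM. Their part in the differences of F11 and the other members was not tested.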

How the data were processed

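RNA of HFD-fed livers (3 WT, 4 TET1 KO) was sequenced, with 1 library per mouse. The authors deposited raw read counts per gene and mouse, not normalised. Per the labels, libraries were stranded and made from poly(A) or rRNA-depleted RNA, and the submitters' processing notes name Trimmomatic 0.36, GSNAP, featureCounts 1.5.3 and GRCm38. The strand setting of the counting is not given in the sources used here, so overlapping genes and near copies are uncertain. No batch or date is labelled.

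Tables were joined by Ensembl identifier, since 26 symbols had become dates in one of them, and 5 repeated entries were left out. In R 4.3.3, edgeR 4.0.16 fitted genotype alone by quasi-likelihood (non-legacy, non-robust) over the 14754 genes that filterByExpr kept, with TMM scaling. P-values were adjusted by Benjamini-Hochberg over those genes and called under 0.05. At least 99.88% of each library's counts fell in these genes, and the biological coefficient of variation was 0.208. Log2 CPM used a prior count of 2, and 95% intervals came from the quasi-likelihood statistic. DESeq2 1.42.0 was the alternative test. Scripts were tested on simulated data. Other alternatives were RLE, upper quartile and total count scaling, no filter, a minimum of 10 counts throughout, robust dispersions, a block by replicate number, and leaving out each liver. Single values had an exact two-sided permutation test. RPKM used exon lengths of GENCODE M1, and positions and sequences came from RefSeq GRCm38.p6, where all 40 members matched by symbol. Promoter windows were searched for the letters given, on both strands, and the HNF1 letters are the start of a longer motif searched earlier.

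The members and lists were chosen with earlier results of these data known, so no test of genotype over a list is given. All members are named. Values in every liver are given for members called by edgeR or DESeq2, for the 4 largest changes in each system and for the most abundant member of each role, which made 17 members. Genes of other lists are named where called, and Tet1, Saa1, Fgb, C4a, Cftr, Spp1, Krt19, Krt7, S100a8 and S100a9 were named after their values were seen or as context. Precision is set by the number of livers. The edgeR and DESeq2 p-values set the genotype difference against the spread between livers of one genotype, estimated with help from all genes.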

Additional observations from a re-analysis of the deposited data

Results flagged for a closer look

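In groups of 4 livers, the highest or lowest liver was examined by the ratio of its gap to the range against Dixon's 95% critical value. Among 51 genes (the 40 members and the genes of other lists that edgeR or DESeq2 called) 1 was past it, and among 25 lists, each examined by both its mean and its sum, 2 were past it by one of these measures. Chance alone gives about 1 in 20 for each gene or measure examined. Epcam, a cholangiocyte marker, had a ratio of 0.929 in TET1 KO livers because the fourth liver was at 4.87 CPM and the others were at 0.689, 0.986 and 0.818 CPM. The mean of the stellate cell markers had a ratio of 0.877, with the third TET1 KO liver apart, and the summed T and NK cell markers had one of 0.932, with the second TET1 KO liver apart. None of the members printed by liver was past the critical value.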

How the results depend on the processing

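F11 kept a log2 fold change of 0.98 to 1.27 over 15 alternatives, with adjusted p of 3.3e-05 to 0.130, and was called in 11 of them. Over all genes, edgeR's 129 higher and 169 lower calls became 633 and 699 with DESeq2, 245 and 347 without a filter, 670 and 656 with the replicate block, 841 and 825 at an adjusted p under 0.1, 107 and 312 with total count scaling, and 16 to 427 and 22 to 464 when a liver was left out. The last low ends came without the second WT liver and the high ends without the fourth TET1 KO liver. Higher complement calls (0) became 1 with DESeq2, 1 with the replicate block, 2 at 0.1 and 0 to 2 with a liver left out. Higher coagulation calls (1) became 3 with DESeq2, 2 without a filter, 2 with the replicate block, 3 at 0.1 and 0 to 2 with a liver left out, and lower calls (0) became 1 with DESeq2 and 2 with the replicate block. The complement median was -0.094 to 0.27 with a liver left out, the latter without the third WT liver.

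The replicate numbers did not pair the livers, since the deviations of same-numbered livers had correlations of 0.209, -0.123 and -0.0964, and not every liver went best with its own number. With that block edgeR called F11, Klkb1 and C6 higher and F9 and F13b lower. The fourth TET1 KO liver has no WT liver of its number, so it added nothing to the genotype difference in that fit.

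Estimates near 0 turned sign in 11 members, none of them called. With total count scaling C1s1 was -0.022, F12 -0.074, Kng2 -0.012 and Plg -0.046. With the replicate block Hc was 0.041, C9 0.010, F12 -0.0028 and Plg -0.026, and F12 was -0.0043 with DESeq2 and -0.0069 without a filter. With a liver left out, the ranges were -0.27 to 0.23 for C4b, -0.068 to 0.29 for Mbl1, -0.19 to 0.21 for Cfb, -0.23 to 0.28 for Hc, -0.30 to 0.26 for C9, -0.20 to 0.14 for Serping1, -0.067 to 0.084 for F12, -0.047 to 0.15 for Kng2, -0.082 to 0.15 for Plg and -0.15 to 0.058 for Serpinc1. The cause was not tested.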

Other observations

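Regulators of liver secretion were also measured. Of 11 hepatocyte transcription factors, 0 were called by edgeR or DESeq2, 2 were higher at an unadjusted p under 0.05 (18.2%, against 13.6% of all genes) and the median log2 fold change was 0.12. Of 10 genes of IL-6 and IL-1 signalling, 0 were called by edgeR, and 2 were higher and 1 lower at an unadjusted p under 0.05 (20% and 10%, against 13.6% and 12.7%). DESeq2 called Il6ra, the IL-6 receptor of hepatocytes, higher. It was at 34.3, 53.8 and 47.4 CPM in WT livers and at 125, 61.5, 56.7 and 79.6 CPM in TET1 KO livers without overlap, with a log2 fold change of 0.84 ± 0.27 (SE; edgeR adjusted p = 0.0948, DESeq2 adjusted p = 0.0360). The first TET1 KO liver, the lowest of its group in the acute phase list, was the highest for Il6ra.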
